A study of Mus musculus with 8 samples.

Results

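The genes described here are the axon guidance ligands and receptors of the mouse dorsal root ganglion, chosen by gene symbol: semaphorins of classes 3 to 7, plexins, neuropilins, Eph receptors and ephrins, Slits and Robos, and netrins with their receptors Dcc, Neo1 and Unc5. The symbols matched 69 of the 40800 gene identifiers in the deposited table, 34 ligands and 35 receptors. The rule uses symbols alone, but it was set with earlier results of these data known. Of the 66 that could be tested in ganglia of Tmem184b mutants, 5 fell (Plxnc1, Plxnd1, Sema4d, Sema4b and Efna1), against 2.64% of all genes tested, and 1 rose (Ntn4), against 2.81%. The rise of Ntn4 was called in 8 of 19 alternative settings. The falls of Plxnc1 and Plxnd1 were called in 18 each, Sema4d in 15, and Sema4b and Efna1 in 10 each. All 6 calls were lost in 1 of these settings, a change of the variance model.

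RNA was sequenced from ganglia of 8 mice aged 6 months. The 4 wild types carry the label C57BL/6, and the 4 mutants were homozygous for the Tmem184b gene trap on that same background. A gene trap is an inserted cassette that captures the transcript of the gene it lands in. Wild types are numbered 1, 3, 4 and 8 and mutants 1, 2, 3 and 4 in the labels, which give no sex, litter or batch. Numbers in the column headers, not explained in the sources used here, also separate the genotypes, and any batch behind them cannot be told apart from genotype. The libraries held between 6183618 and 7983821 reads. Tmem184b itself (chromosome 15, 79360684 to 79403569) read 7.43, 7.51, 7.37 and 7.36 log2 CPM in wild types against 2.68, 2.86, 2.47 and 3.10 in mutants, CPM being reads scaled to a common library total. Its log2 difference was -4.64 (SE 0.113; limma adjusted p = 2.57e-12), and 3.89% of the wild-type CPM remained. Summed markers of neurons were abundant in every library, at 7743 to 8498 CPM in wild types and 7810 to 8318 CPM in mutants.

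Guidance proteins steer growing axons by attraction or repulsion. Semaphorins bind plexins, in class 3 mostly together with a neuropilin, ephrins bind Eph receptors at contacts between cells, Slits bind Robos, and netrins bind Dcc, Neo1 and Unc5 proteins. Many of these genes stay active in adult sensory neurons, glia and vessels, where they are known for parts in axon regrowth, synapse maintenance and vessel patterning. In sensory neurons class 3 semaphorins and Slits are best known for shaping where afferents enter and branch in the spinal cord and skin.

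Expression values are moderated log2 CPM, meaning that a small prior count was added before the logarithm, so changes of weakly read genes are understated. Testing was limited to genes above 0 log2 CPM in 4 or more of the 8 samples, and 66 members passed. Of these 66, 6 were called at a limma adjusted p under 0.05, that is 9.09% of the members. The background was 5.46% of all 15030 genes tested (820 genes). Called lower were 5 members against a background of 2.64%, and called higher was 1 against 2.81%. The test, limma, compares group means with a spread shared across genes of like level, the mean-variance trend. Each result was recomputed under 19 alternatives, among them voom (which weights recovered reads by their precision), other scalings, a block for equal sample numbers and each sample left out. An unadjusted p under 0.05 was reached by 19 members, 28.8% against 21.3% of all genes. Of these, 12 were higher (background 14.1%) and 7 lower (background 7.21%).

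The differences of the guidance genes were about the size seen across the whole table. Their median absolute log2 difference was 0.150, against 0.14 for all genes. With its sign kept, the median log2 difference, mutant minus wild type, was 0.061 for the 66 members and 0.066 for all genes. Wild-type and mutant samples did not overlap for 9 members, 13.6% of those tested, a share near the background of 12.4%. The difference lay above 0 for 43 members (65.2%, against 64.4% of all genes), but this count depends on scaling: it was 30 under centring of samples on their medians and 35 under quantile normalization. Centring also changed the split of calls, from 1 higher among 6 members to 0 higher among 7, and from 423 higher among 820 genes to 204 among 910.

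**Figure D1:**
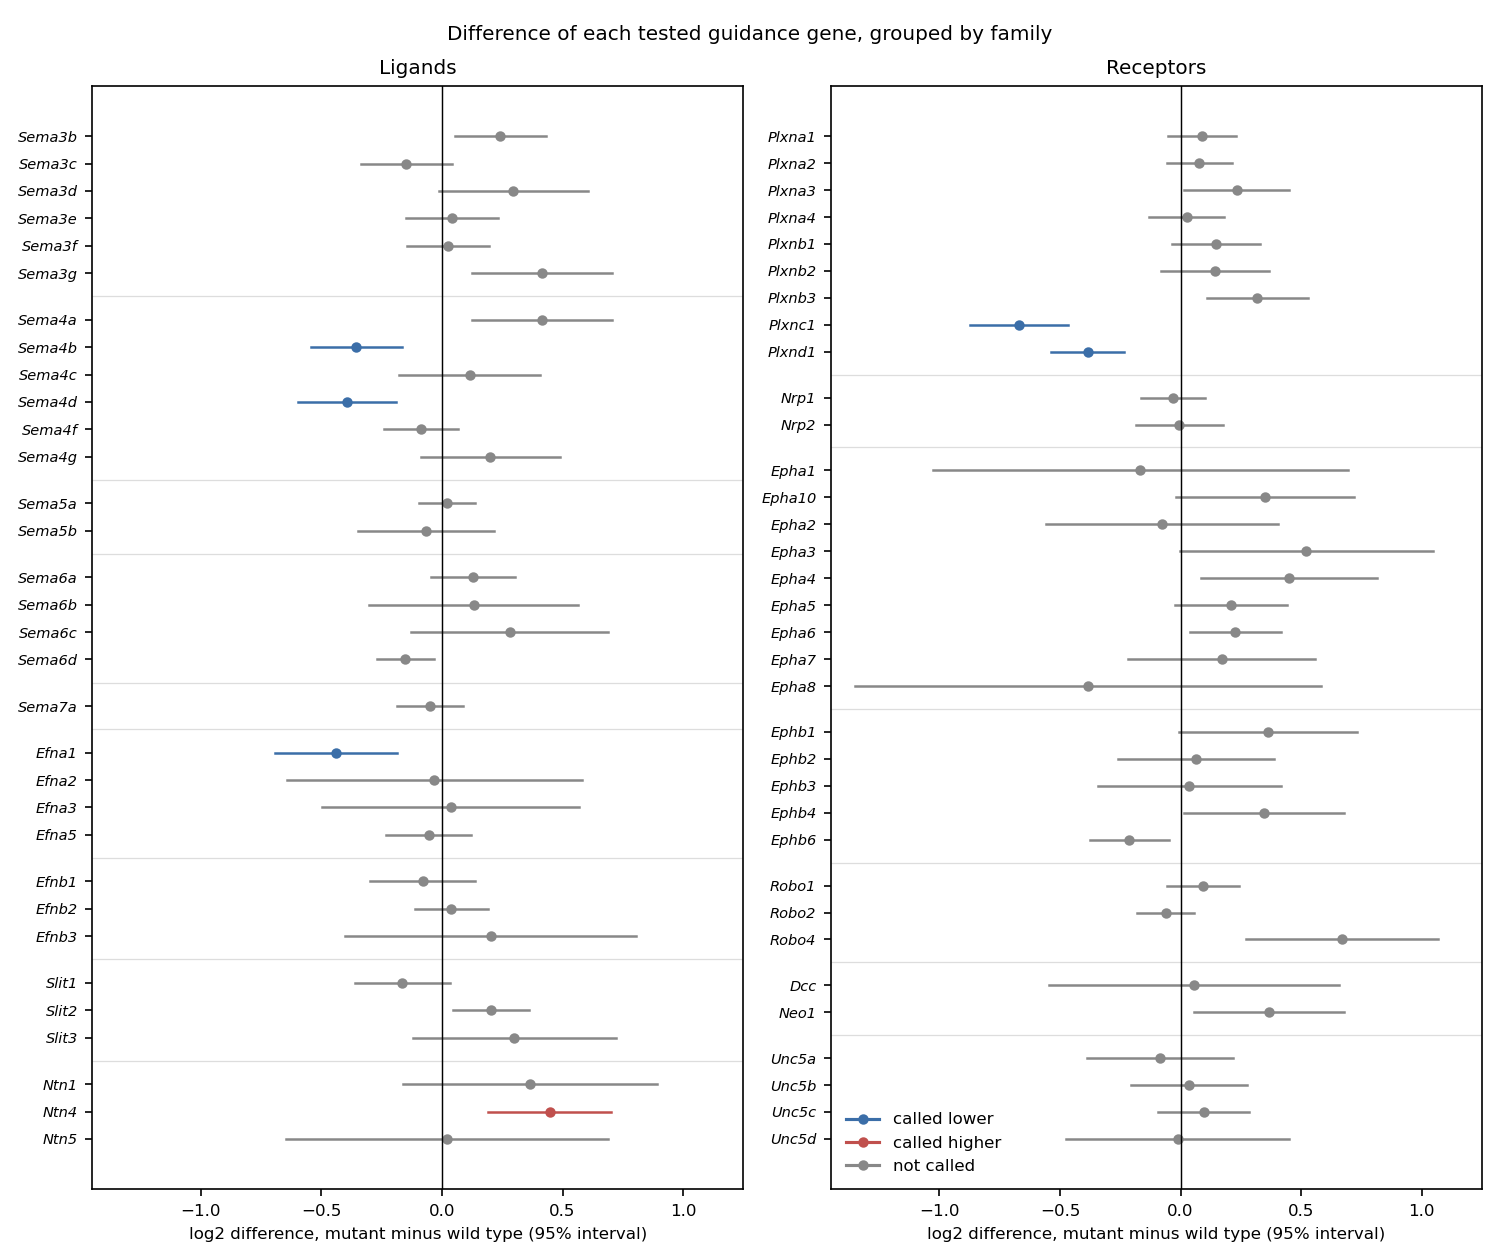
Log2 difference (mutant minus wild type, x axis) with its 95% interval for each of the 66 tested guidance genes, ligands on the left and receptors on the right, grouped by family. Blue marks the 5 genes called lower, red the 1 called higher and grey the 60 not called, whose intervals widen for weakly read genes such as Epha8 and Epha1.

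The level of each gene was compared per kilobase of annotated exon, as mean CPM over all 8 samples. Plxnc1 stood first at 52.0 CPM per kilobase, followed by Slit1 at 46.7, Plxnd1 at 39.5, Sema7a at 36.0 and Sema3b at 25.8. The 2 plexins that fell in the mutant were thus the most abundant guidance receptors of the ganglion. In each family the leading member was Sema3b, Sema4f, Sema5a, Sema6d and Sema7a for the semaphorin classes, Nrp1, Epha6, Ephb6, Efna5, Efnb1, Slit1, Robo2, Ntn1, Neo1 and Unc5a. EphA receptors were low as a family, between 0.165 and 10.1 CPM per kilobase, while plexins ranged from 4.21 to 52.0. Dcc, the classic netrin receptor of developing axons, had 9 to 18 reads per library.

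Fewer than 3 reads were treated as not detected, a limit that covers counting error alone. Sema3a, Efna4 and Robo3 did not pass the filter. Sema3a, a secreted repellent, had 1 to 9 reads per library, Efna4, an ephrin, 0 to 7 and Robo3, a Robo known from midline crossing, 0 to 4. Differences in these genes were not detectable at this depth.

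**Figure D2:**
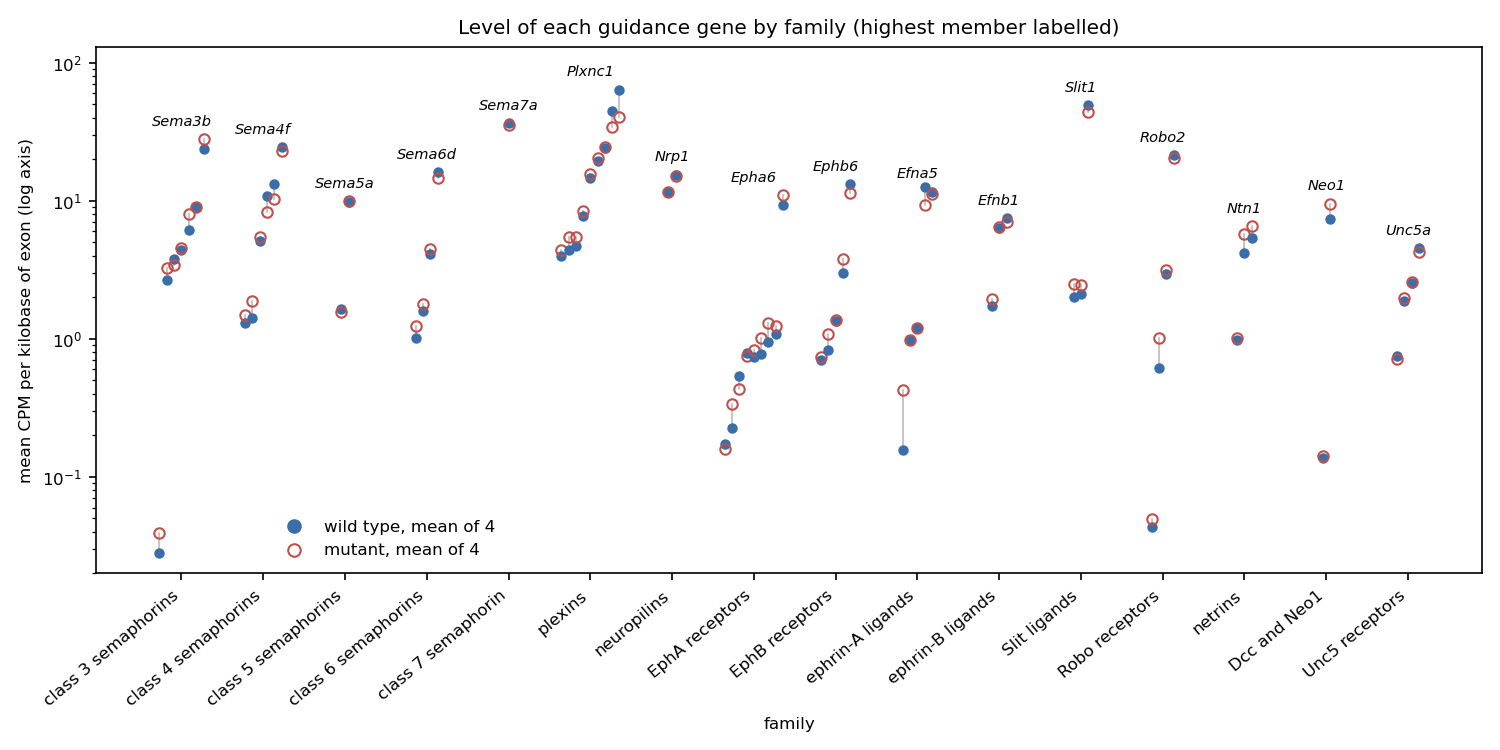
Mean CPM per kilobase of exon (log axis) of all 69 guidance genes by family, with filled blue points for the mean of 4 wild types and open red circles for the mean of 4 mutants. The gene with the highest mean over all 8 samples is labelled in each family, and Plxnc1 leads with 63.7 CPM per kilobase in wild type.

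Among the receptors the plexins held both calls. Plxnc1 (ENSMUSG00000074785; chromosome 10, 94790866 to 94944835 in GRCm38) encodes plexin C1, the receptor of semaphorin 7A, and is known to mark nonpeptidergic nociceptors. Its log2 CPM was 9.12, 9.03, 9.04 and 9.03 in wild types 1, 3, 4 and 8, and 8.28, 8.49, 8.67 and 8.08 in mutants 1 to 4. The wild types lay within 0.1 of each other while the mutants spread widely, with mutant 4 lowest and mutant 3 highest, and no mutant reached any wild type. The mean went from 531 ± 15.8 to 337 ± 59.5 CPM (SD, n = 4 each). The log2 difference was -0.67 (SE 0.095; limma adjusted p = 0.00134), which is a fall of 37.2% on the linear scale. An annotated gene on the same strand overlaps Plxnc1 exons, and how shared reads were counted is unstated.

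Plxnd1 (ENSMUSG00000030123; chromosome 6, 115954811 to 115995005) encodes plexin D1, the receptor of semaphorin 3E in neurons and vessels. It read 8.38, 8.33, 8.43 and 8.26 log2 CPM in wild types against 7.99, 7.99, 8.12 and 7.76 in mutants. Again the groups did not overlap, and mutant 4 was lowest and mutant 3 nearest to the wild types. Mean CPM fell by 23.4%, from 327 ± 16.5 to 251 ± 25.6, a log2 difference of -0.38 (SE 0.071; limma adjusted p = 0.00625). Both plexin calls held in 18 of 19 alternatives and were lost without the mean-variance trend, at adjusted p of 0.0581 for Plxnc1 and 0.0893 for Plxnd1.

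The other 7 plexins were not called, and their log2 differences ran from 0.03 for Plxna4 to 0.32 for Plxnb3. Plxnb3 had an unadjusted p of 0.00568 and a limma adjusted p of 0.0742. The neuropilins, co-receptors of class 3 semaphorins, were not called. Nrp1 read 7.24, 7.31, 7.27 and 7.15 log2 CPM in wild types against 7.12, 7.31, 7.13 and 7.29 in mutants. These samples interleave, and the log2 difference of -0.03 had a 95% interval of -0.16 to 0.10. For Nrp2 the difference was -0.005 (interval -0.18 to 0.18).

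**Figure D3:**
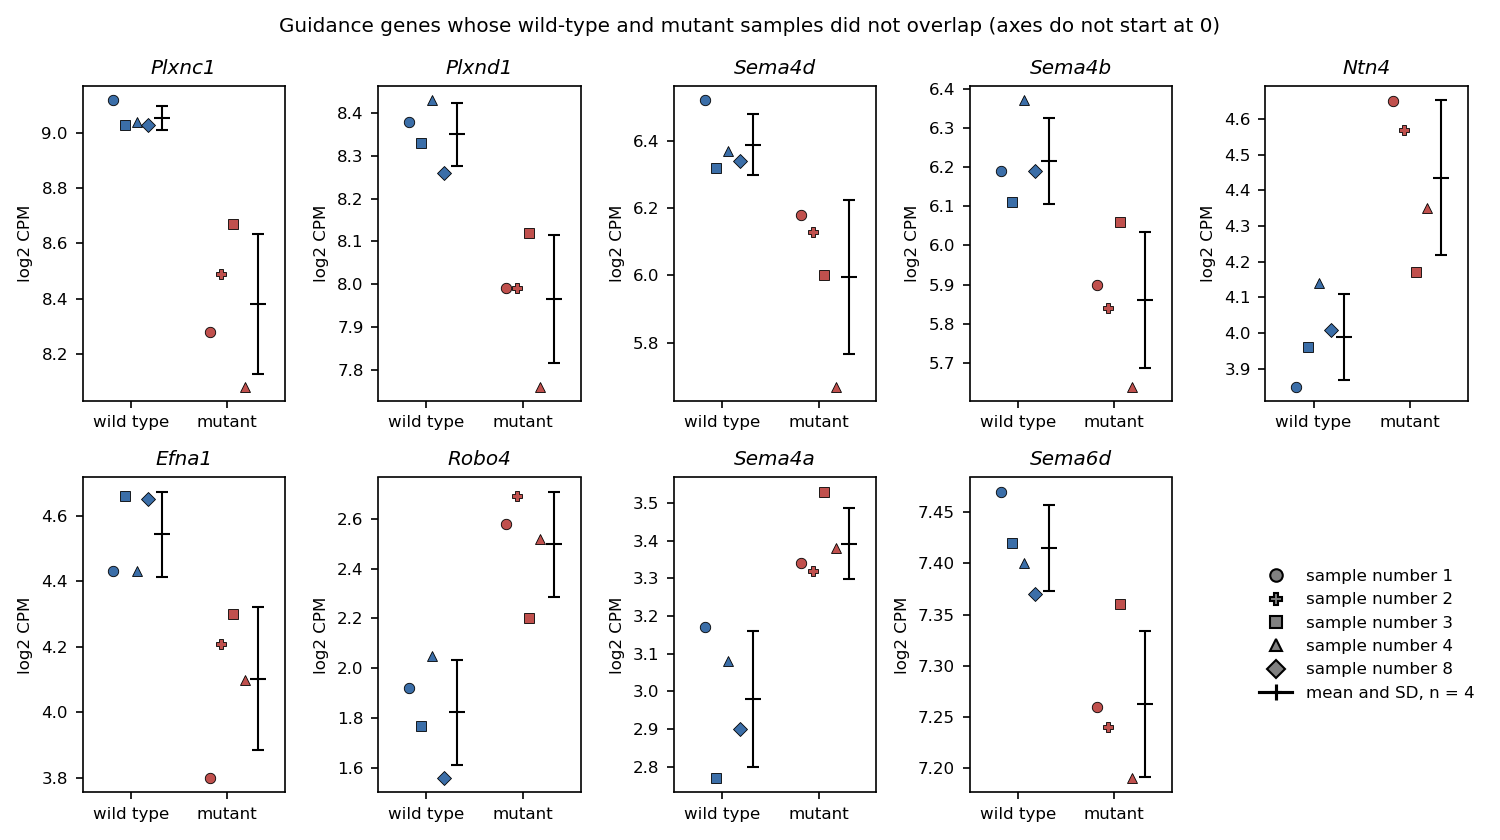
Log2 CPM (y axis, not starting at 0) of each sample for the 9 tested guidance genes whose groups did not overlap, wild types in blue and mutants in red, with the mean and SD of 4 samples. In Plxnc1, Plxnd1, Sema4d and Sema4b mutant 4 (triangle) is the lowest of all samples, and in Ntn4 the gap between groups is 0.03.

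The starts of the called genes are shown because Plxnc1 and Plxnd1 fell together while Ntn4 rose. Of the 69 members 59 matched a RefSeq promoter entry by symbol (GRCm38.p6), and 3 of the 6 called genes had a single start there. Each line gives the 250 bases before that start, read 5′ to 3′ on the gene's strand: chr10:94944846-94945095 on the minus strand for Plxnc1, chr6:115995006-115995255 on the minus strand for Plxnd1, and chr10:93640799-93641048 on the plus strand for Ntn4. The Ntn4 window lies inside the gene by the GENCODE positions used elsewhere here, where Ntn4 starts at 93640681. It is therefore not upstream of that other start. Capitals mark GGGCGG or its reverse complement CCGCCC, the core of a GC box.
Plxnc1: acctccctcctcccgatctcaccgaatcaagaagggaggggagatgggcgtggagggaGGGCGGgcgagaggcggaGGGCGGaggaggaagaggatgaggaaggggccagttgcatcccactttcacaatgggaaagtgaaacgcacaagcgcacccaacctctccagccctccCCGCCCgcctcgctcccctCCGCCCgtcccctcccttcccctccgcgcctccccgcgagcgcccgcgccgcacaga
Plxnd1: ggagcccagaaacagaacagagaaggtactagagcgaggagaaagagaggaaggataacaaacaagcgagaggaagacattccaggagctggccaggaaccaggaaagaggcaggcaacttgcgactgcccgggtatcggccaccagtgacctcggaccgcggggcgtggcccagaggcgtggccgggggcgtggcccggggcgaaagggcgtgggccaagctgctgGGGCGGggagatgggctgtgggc
Ntn4: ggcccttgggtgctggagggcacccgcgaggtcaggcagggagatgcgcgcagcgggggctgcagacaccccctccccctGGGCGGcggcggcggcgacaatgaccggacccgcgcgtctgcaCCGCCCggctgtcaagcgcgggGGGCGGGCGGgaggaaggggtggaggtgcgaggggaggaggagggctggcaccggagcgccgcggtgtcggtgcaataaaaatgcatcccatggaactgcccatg

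All 3 windows were rich in G and C, at 68.8% for Plxnc1, 64.8% for Plxnd1 and 73.2% for Ntn4, against a median of 52.4% over all promoter entries. The GC-box core occurred 4 times before Plxnc1, once before Plxnd1 and 4 times before Ntn4, where a pair of matches overlap. It was present in 32.7% of all 32851 windows of this length and in 53 of the 75 windows of the members (70.7%). The core TGTGGT or ACCACA, known from Runx factors, is in none of the 3 windows and in 14.0% of all windows. The windows of Plxnc1, Plxnd1 and Ntn4 all held the marked letters, and a match is a description of sequence only. Windows of Sema4d, Sema4b and Efna1 were not used here.

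Among the ligands, class 4 semaphorins, which are membrane proteins, held 2 of the 4 calls. Sema4d (ENSMUSG00000021451; chromosome 13, 51685529 to 51793747), a ligand of B-type plexins, read 6.52, 6.32, 6.37 and 6.34 log2 CPM in wild types against 6.18, 6.13, 6.00 and 5.67 in mutants. The groups did not overlap, and mutant 4 lay furthest below. Mean CPM fell by 23.9%, from 83.5 ± 5.29 to 64.0 ± 9.49, a log2 difference of -0.39 (SE 0.096; limma adjusted p = 0.0273). Sema4b (ENSMUSG00000030539; chromosome 7, 80186841 to 80226527), another transmembrane semaphorin, read 6.19, 6.11, 6.37 and 6.19 in wild types against 5.90, 5.84, 6.06 and 5.64 in mutants. Its groups were separated by 0.05, mutant 3 coming close to wild type 3. Its mean fell by 21.8%, from 74.2 ± 5.87 to 58.1 ± 6.97 CPM, a log2 difference of -0.35 (SE 0.087; limma adjusted p = 0.0293). Sema4d lost its call without wild type 1 (adjusted p = 0.0947), without wild type 3 (0.0514), in samples 1, 3 and 4 alone (0.0565) and without the variance trend (0.142). Sema4b lost it without wild type 1, 4 or 8 or mutant 1, 2 or 4 (0.0703, 0.064, 0.0532, 0.0591, 0.0687 and 0.0715). Its call was also lost under the replicate block (0.104), in samples 1, 3 and 4 alone (0.104) and without the trend (0.135).

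Sema4a, a class 4 semaphorin first known from immune cells, read 3.17, 2.77, 3.08 and 2.90 log2 CPM in wild types against 3.34, 3.32, 3.53 and 3.38 in mutants, from 52 to 73 reads per library. All mutants lay above all wild types, but the log2 difference of 0.41 was not called (SE 0.136; limma adjusted p = 0.0922). Sema4f, the most abundant of the class, differed by -0.09 (95% interval -0.24 to 0.06). The class therefore held 2 falls, and 4 members that were not called with differences of either sign.

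The remaining semaphorins gave no call. Sema3b, a secreted class 3 semaphorin, went from 113 ± 13.8 to 134 ± 13.2 CPM (SD, n = 4 each), a log2 difference of 0.24 (limma adjusted p = 0.125) with overlapping groups. Sema3g, also secreted and known from vessels, differed by 0.41 (limma adjusted p = 0.0916). With the replicate block Sema3b and Sema3g were both called, Sema3b at an adjusted p of 0.0312. Sema6d, a transmembrane ligand of A-type plexins, read 7.47, 7.42, 7.40 and 7.37 log2 CPM in wild types against 7.26, 7.24, 7.36 and 7.19 in mutants. Every mutant lay below every wild type, yet the gap was small, and the log2 difference of -0.15 was not called (limma adjusted p = 0.124, and 0.0498 after median centring). Sema5a, with thrombospondin repeats beside its semaphorin domain, differed by 0.02 (95% interval -0.10 to 0.14), and its sign flipped under median centring, to -0.07.

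The partners of the 2 lowered plexins were compared with them. Sema7a, the membrane-anchored ligand of plexin C1, read 6.94, 7.0, 6.74 and 6.98 log2 CPM in wild types against 6.89, 6.87, 6.82 and 6.89 in mutants, groups that overlap throughout. Its log2 difference was -0.05 with a 95% interval of -0.19 to 0.09, which does not reach the -0.47 that bounds the Plxnc1 interval from above. Sema3e, the ligand of plexin D1, differed by 0.04 (interval -0.15 to 0.23), again apart from the Plxnd1 interval of -0.54 to -0.23. Plxnb1, a receptor of semaphorin 4D, differed by 0.15 (interval -0.04 to 0.33), beside a Sema4d interval of -0.60 to -0.19. No test of the difference between a ligand and its receptor was made.

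Of the ephrins, Efna1 (ENSMUSG00000027954; chromosome 3, 89271733 to 89281142), a lipid-anchored ligand of EphA receptors, fell. It read 4.43, 4.66, 4.43 and 4.65 log2 CPM in wild types against 3.80, 4.21, 4.30 and 4.10 in mutants. The groups did not overlap, and here mutant 1 was lowest. Mean CPM fell by 26.3%, from 23.1 ± 2.08 to 17.0 ± 2.52, a log2 difference of -0.44 (SE 0.118; limma adjusted p = 0.0432). The call was lost without wild type 1, 3 or 8 or mutant 1, 2 or 4 (limma adjusted p of 0.0711, 0.12, 0.099, 0.106, 0.0594 and 0.0863). It was also lost under the replicate block (0.0665), in samples 1, 3 and 4 alone (0.123) and without the variance trend (0.122). Efna5, the other abundant ephrin-A, differed by -0.06 (95% interval -0.23 to 0.12). The 3 ephrin-B ligands were not called, Efnb1, the leading one, at -0.08 (interval -0.30 to 0.14).

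None of the 14 Eph receptors tested was called, 9 of the A and 5 of the B type, under limma at an adjusted p of 0.05. At an unadjusted p under 0.05 there were 2 of each type, and voom on recovered reads also called 0. Epha6, the leading A-type receptor, read 5.43, 5.71, 5.6 and 5.77 log2 CPM in wild types against 5.86, 5.81, 6.03 and 5.72 in mutants. Only mutant 4 lay inside the wild-type range, and the log2 difference of 0.23 had a limma adjusted p of 0.150. Ephb6, which lacks kinase activity, read 5.77, 5.6, 5.66 and 5.55 in wild types against 5.42, 5.32, 5.57 and 5.43 in mutants. Mutant 3 overlapped the wild types, and the log2 difference of -0.21 had an adjusted p of 0.125, passing after median centring (-0.30; 0.0425). Epha4, a broad ephrin receptor, differed by 0.45 (limma adjusted p = 0.141) from 45 to 84 reads per library, and Ephb4, known from veins, by 0.35 (0.215).

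No Slit or Robo gene was called, and Robo4 lay next to the threshold. Robo4 (ENSMUSG00000032125; chromosome 9, 37401897 to 37415115) is the Robo of endothelial cells. It read 1.92, 1.77, 2.05 and 1.56 log2 CPM in wild types against 2.58, 2.69, 2.20 and 2.52 in mutants, from 21 to 26 and from 28 to 38 reads per library. All mutants lay above all wild types. The log2 difference was 0.67 (SE 0.187; limma adjusted p = 0.0503), with means of 3.28 ± 0.51 and 5.39 ± 0.78 CPM. It was called in 6 of 19 alternatives: with all samples under a stricter filter (0.0473), 1 CPM added (0.0462), a robust trend (0.0465) and voom (0.0486), and without wild type 4 (0.0409) or mutant 3 (0.0336). Slit1, a Robo ligand, went from 291 ± 19.3 to 262 ± 39.3 CPM, a log2 difference of -0.17 (limma adjusted p = 0.325), with mutant 4 at 7.69 log2 CPM below 8.03 to 8.32 in all other samples. Without mutant 4 that difference was -0.055 (limma adjusted p = 0.713). Slit2, another Robo ligand, differed by 0.20 (limma adjusted p = 0.125). Robo2, the most abundant Robo, differed by -0.06 (95% interval -0.18 to 0.06).

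Among netrins Ntn4 (ENSMUSG00000020019; chromosome 10, 93640681 to 93747207), a laminin-binding netrin of basement membranes, was the 1 guidance gene that rose. It read 3.85, 3.96, 4.14 and 4.01 log2 CPM in wild types against 4.65, 4.57, 4.17 and 4.35 in mutants. The groups did not overlap, but mutant 3 lay only 0.03 above wild type 4. The log2 difference was 0.45 (SE 0.119; limma adjusted p = 0.0418), a rise of 36.3%. Mean CPM went from 15.6 ± 1.33 to 21.5 ± 3.21. The call was lost under median centring (log2 difference 0.35, limma adjusted p = 0.0898) and quantile normalization (0.35, 0.111). It was also lost under the replicate block (0.142), in samples 1, 3 and 4 alone (0.158) and with no variance trend (0.116). Without wild type 1, 3 or 8 or mutant 1, 2 or 4 it was lost as well (0.124, 0.096, 0.0706, 0.119, 0.113 and 0.0646).

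Ntn1, the founding netrin, was not called. It read 5.14, 4.63, 5.81 and 4.32 log2 CPM in wild types against 5.40, 5.44, 4.85 and 5.67 in mutants, and its log2 difference of 0.37 had an interval of -0.16 to 0.89. It was 0.15 without wild type 8, 0.64 without wild type 4 (limma adjusted p = 0.0546) and 0.11 under the replicate block. Neo1, a receptor for netrins and repulsive guidance molecules, differed by 0.37 with overlapping groups (limma adjusted p = 0.156) and was called without wild type 4 (0.50; 0.0343). Without that sample 6 guidance genes were called higher in place of 1, the others being Epha4, Plxnb3, Robo4 and Sema3g besides Ntn4. The 4 Unc5 receptors, which mediate repulsion by netrins, differed by -0.09 to 0.10, and none was called. Unc5a, the leading one, was at -0.09 (interval -0.39 to 0.22) and its sign flipped without wild type 3. Exons of several members, among them Unc5a, Epha6, Ephb4, Plxnb1 and Plxna4, overlap an annotated gene on the opposite strand. Those of Sema4a and Nrp1, like those of Plxnc1, overlap an annotated gene on the same strand. Reads shared with such genes could not be separated here.

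The other genes of guidance signalling were a list of 70, all of which passed the filter. Of these, 5 fell and 3 rose, 11.4% against the 5.46% of all genes, and the median log2 difference was -0.005. The list was chosen with earlier results of these data known, and the background of all genes was not matched to it in level. The higher share therefore cannot show that calls were enriched in the list. Mical1 and Mical2, enzymes that oxidize actin and act below plexins, moved in opposite directions. Mical1 read 6.52, 6.25, 6.37 and 6.44 log2 CPM in wild types against 5.62, 5.79, 6.11 and 5.57 in mutants, a log2 difference of -0.62 (SE 0.104; limma adjusted p = 0.00365). Mical2 read 5.58, 5.44, 5.55 and 5.24 in wild types against 6.01, 5.98, 5.71 and 6.17 in mutants, a difference of 0.51 (SE 0.099; limma adjusted p = 0.00883). Neither overlapped between groups, and in both mutant 4 was furthest from the wild types and mutant 3 nearest. Mical1 lost its call without the variance trend (0.0713), and Mical2 there (0.0869) and in samples 1, 3 and 4 alone (0.0565).

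Further falls were in Rgs3, which binds ephrin-B tails, at -0.48 (limma adjusted p = 0.0211), L1cam, an adhesion partner of neuropilin 1, at -0.29 (0.0373), Rgmb, a repulsive guidance molecule that binds neogenin, at -0.20 (0.0489), and Dpysl3, a collapsin response protein, at -0.19 (0.0437). Further rises were in Ngef, an exchange factor below EphA receptors, at 0.47 (limma adjusted p = 0.0349) and Pak1, a kinase below Rac and Cdc42, at 0.32 (0.0432). The groups overlapped for Pak1 and for none of the other 7. These 6 genes each lost the call without the variance trend and without some single samples, the highest adjusted p with 1 sample left out being 0.0734 for Rgs3, 0.127 for L1cam, 0.141 for Rgmb and 0.0991 for Ngef without wild type 1, 0.119 for Dpysl3 without wild type 3 and 0.137 for Pak1 without wild type 1. None of the 6 actin regulators, among them cofilin and Enah, was called.

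**Figure D4:**
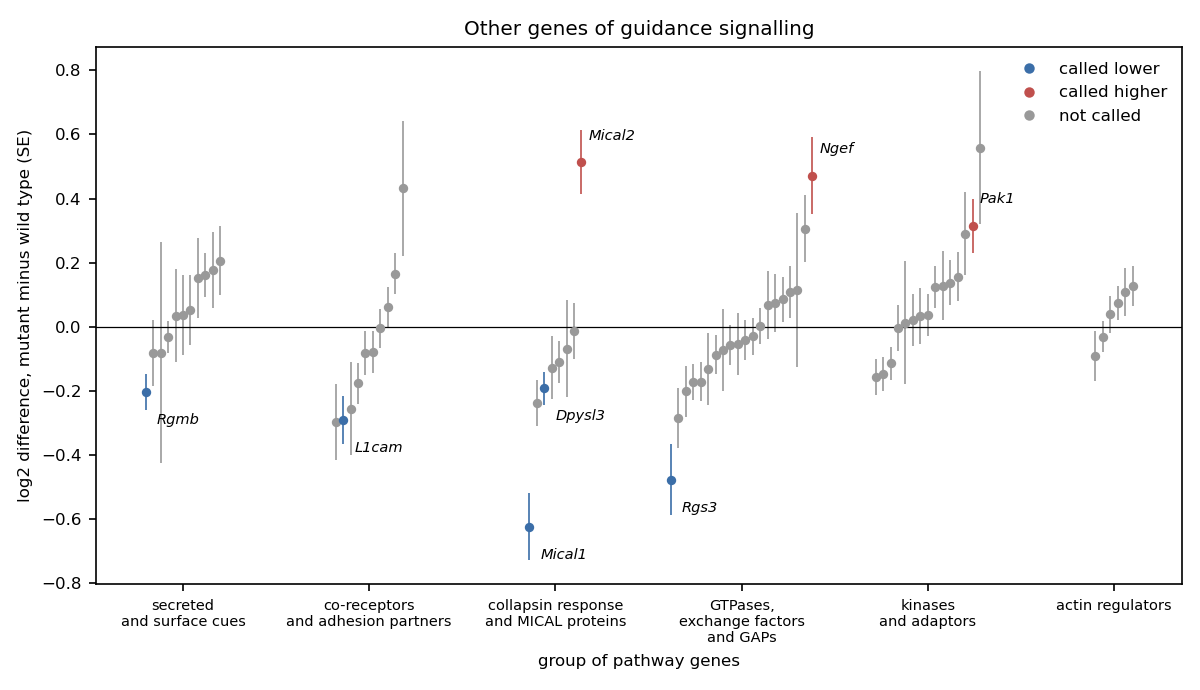
Log2 difference (mutant minus wild type, y axis) with its SE for the 70 other genes of guidance signalling, in 6 groups along the x axis. Blue marks the 5 genes called lower, red the 3 called higher and grey the 62 not called, with Mical1 the lowest and Mical2 the highest of the called genes.

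Markers of sensory neuron classes and other cells were read beside these genes. In whole ganglia fewer cells of a type and less RNA per cell cannot be told apart. All 6 markers of NP1 neurons, the nonpeptidergic nociceptors marked by Mrgprd, fell, with Plxnc1 left out of the list. Their summed level was 1859, 1815, 1800 and 1666 CPM in the wild types and 1013, 1227, 1335 and 899 CPM in mutants 1 to 4. The mutants thus stood in the same order as in Plxnc1, mutant 3 highest, then 2, 1 and 4. That order held in 5 of the 6 NP1 markers, among them Mrgprd at 6.97, 7.32, 7.61 and 6.84 log2 CPM in mutants 1 to 4, but not in P2rx3 at 6.66, 7.14, 7.06 and 6.72. Mical1 of the pathway list also had this order. So did some guidance genes that were not called, among them Slit1, Robo2, Sema4f, Sema6c, Sema4c and Plxnb1. Plxnd1, called lower, also had mutant 3 highest and mutant 4 lowest, with mutants 1 and 2 both at 7.99 log2 CPM. Sema4d, Sema4b and Efna1, all called lower, had other orders. The share of all genes with this order was not counted. Markers of NP3 itch neurons also fell, 6 of 7, with sums of 122.9 to 168.7 CPM in wild types and 32.3 to 39.8 CPM in mutants. NP2 markers summed to 219 to 275 CPM in wild types and 199 to 208 CPM in mutants, and 2 of 3 fell. Of 7 pan-neuronal and 6 neurofilament markers 0 were called (limma), and of 5 peptidergic markers 1 fell. The part of these cell classes in the falls of Plxnc1, Plxnd1, Sema4d, Sema4b and Efna1 was not tested.

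For the genes known from vessels the 7 endothelial markers gave 0 calls (limma), and their sums were 66.4 to 94.7 CPM in wild types against 101.0, 93.0, 70.4 and 92.2 CPM in mutants 1 to 4. Mutant 3, the lowest mutant for Robo4 and Ntn4, was also the lowest of the mutants here. It was likewise the lowest mutant for the pan-neuronal, peptidergic, neurofilament, satellite glia, fibroblast and immune sums. The highest mutant was mutant 1 for the endothelial sum and Ntn4, but mutant 2 for Robo4. Satellite glia markers summed to 601 to 689 CPM in wild types and 711 to 980 CPM in mutants, without overlap, and 1 of 6 was called higher. Fibroblast markers summed to 611 to 1222 CPM in wild types and 794 to 1177 CPM in mutants, wild type 4 being the highest sample, and 1 of 6 (Dcn) was called higher. Immune markers summed to 36.8 to 55.3 CPM in wild types and 46.5 to 75.5 CPM in mutants, with 1 of the 6 tested called higher (Cd163). Schwann cell markers summed to 2419 to 3162 CPM in wild types and 2856 to 3437 CPM in mutants, with 2 of 6 called higher (Drp2 and Ncmap). Skeletal muscle markers summed to 155.2 CPM in mutant 4, the lowest sample for Plxnc1, Plxnd1, Sema4d and Sema4b, against 10.5 to 44.8 CPM in the other mutants and 3.49 to 32.9 CPM in wild types. Without mutant 4 the calls of Plxnc1, Plxnd1 and Sema4d held, and those of Sema4b and Efna1 were lost. Markers of central nervous system glia summed to 20.3 to 33.2 CPM in wild types and 30.8 to 40.1 CPM in mutants. Of the muscle and these glia markers that could be tested 0 were called (limma), and Mylpf and Olig2 did not pass the filter. No marker of any list was at 0 reads in all samples. The part of these cells in the values of Ntn4, Robo4, Neo1 and Ntn1 was not tested.

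**Figure D5:**
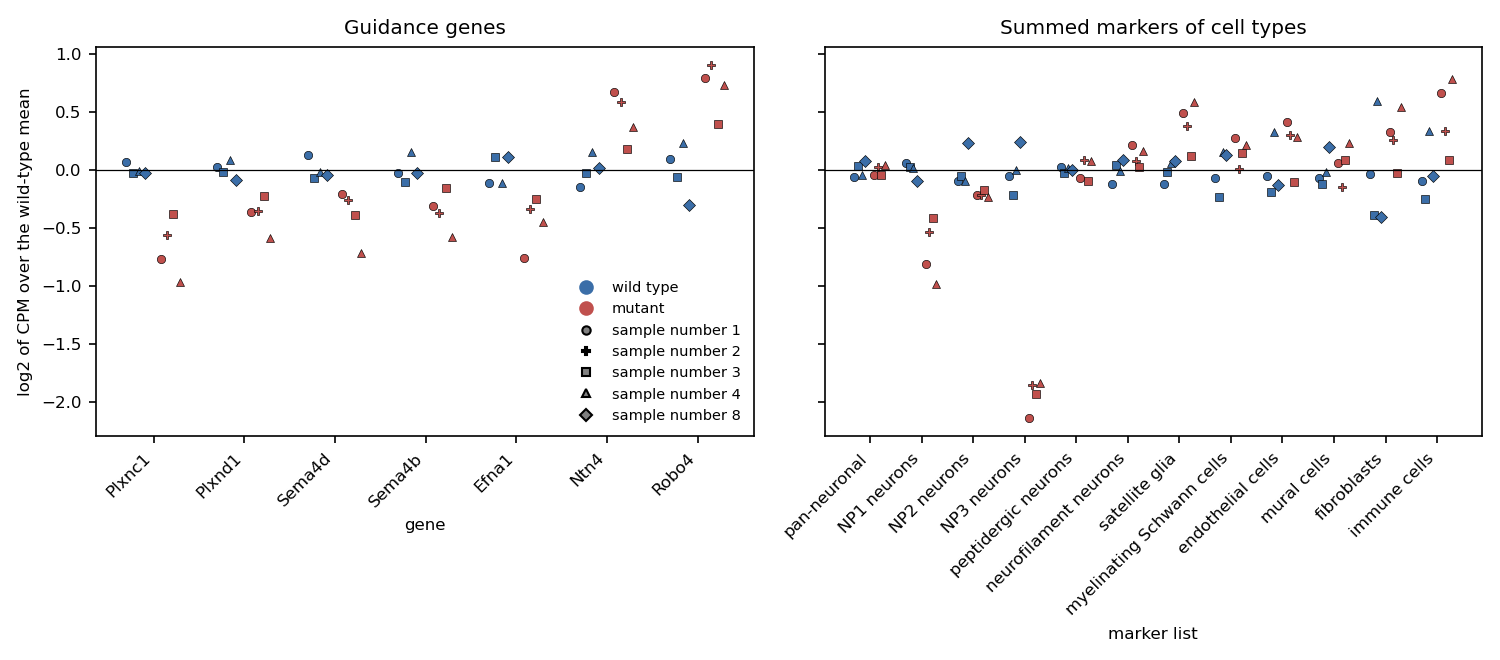
Log2 of CPM over the wild-type mean (y axis) for 7 guidance genes on the left and for summed marker genes of 12 cell types on the right, with 1 point per sample, shaped by sample number, wild types blue and mutants red. Plxnc1 and the summed NP1 markers show the same order of the 4 mutants, an order also found in uncalled guidance genes such as Slit1. In Plxnd1 mutant 3 is also the highest mutant and mutant 4 the lowest, with mutants 1 and 2 nearly equal. Pan-neuronal markers lie near 0 in all samples.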

How the data were processed

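RNA of dorsal root ganglia from 4 wild-type and 4 Tmem184b mutant mice was read as single-end libraries. The authors' deposited table holds moderated log2 CPM for each gene, as its values show. The submitters' processing notes name Salmon 0.11.1, DESeq2 and the build mm9 without roles, and the use of strand in counting is not given in the sources used here. Identifiers listed more than once (402) carried equal values and were used once. Columns were matched to samples by genotype and number. After subtraction of the shared floor, 100.0% of values were within 0.1 read of whole reads, which gave reads and library totals. These reads served for CPM, detection and voom.

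Mutant and wild type were compared with limma 3.58.1 in R 4.3.3 (lmFit and eBayes, trend switched on) in two-sided tests without covariates, with Benjamini-Hochberg adjustment over all 15030 genes tested. The procedure was tested on simulated reads. Intervals are 95% intervals from the moderated fit. Percent changes of genes are the fitted log2 differences put on the linear scale, not changes of the mean CPM. Gene positions and exon lengths are those of GENCODE M21 (GRCm38), in which all 69 member identifiers were found, and are not of the authors' build. Tables used Python 3.11.15, pandas 2.3.3 and scipy 1.17.1, figures matplotlib 3.10.9.

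Members, lists and tests were chosen with earlier results of these data known. Named in full are called members, members with non-overlapping groups and an unadjusted p under 0.05, the leading member per kilobase of each family and called genes of the pathway list. Binding partners and a few others were named after their values were seen. Alternatives covered the filter, the pseudocount, scaling, the variance model, voom, Xist as a covariate (the labels give no sex), the threshold, each sample left out and a replicate block.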

Additional observations from a re-analysis of the deposited data

How the results depend on the processing

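No called guidance gene changed direction in any alternative. With Xist as a covariate the 6 called guidance genes were the same as without it. The planned count model with TMM scaling was not run, because the deposited unit is log2 CPM, and voom on recovered reads stood in for it. Guidance genes called higher numbered 2 under the stricter filter, with 1 CPM added, under the robust trend, with voom and under the replicate block, 5 at an adjusted p under 0.1, and 0 without the variance trend, with quantile normalization, with median centring and in the 6 samples numbered 1, 3 or 4 fitted without the block. Guidance genes called lower numbered 0 without the trend, 3 under the block and 2 in those 6 samples without it. With each sample left out in turn the counts ranged from 0 to 6 higher and from 2 to 5 lower.

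Other pathway genes called higher numbered 1 under median centring, 0 without the trend and 0 in the 6 samples without the block, and called lower 3 without a filter, 10 under median centring, 2 under quantile normalization, 0 without the trend, 3 with Xist, 3 in the 6 samples and 8 at an adjusted p under 0.1. Leaving out samples gave 1 to 2 higher and 1 to 4 lower. Over all genes, median centring gave 204 higher and 706 lower calls, dropping the trend left 67 and 75, and 876 and 612 passed a threshold of 0.1. Higher calls were 271 under quantile normalization and 180 in the 6 samples. Leaving out samples gave 174 to 572 higher and 230 to 427 lower. The cause of these shifts was not tested.

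The log2 difference of Sema5a was -0.073 under median centring and, with each sample left out, ran from -0.0033 without mutant 1 to 0.049 without wild type 4. That of Nrp1 was -0.12 under median centring and -0.093 under the replicate block, and with each sample left out ran from -0.063 without mutant 2 to 0.0012 without mutant 1. That of Unc5a ran, with each sample left out, from -0.18 without mutant 3 to 0.024 without wild type 3. The median over the tested guidance genes was -0.032 under median centring. The labels do not say whether the shared numbers 1, 3 and 4 pair the samples. Correlations of same-numbered deviations were 0.086, 0.016 and 0.099, which cannot tell whether such samples shared a litter or batch. Depth limits the genes under 100 reads per library, where 95% intervals reached from -1.35 to 0.58 for Epha8.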
